A study of Mus musculus with 20 samples.

Results

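The diet comparison at week 6 set 3 arrays from the high fat group against 3 arrays from the chow group, 6 of the 20 arrays in the series, chosen by their titles. Each array holds microRNAs (miRNAs) of one sample of ascending aorta that carried an atherosclerotic lesion, measured in 1 colour (Cy3) on Agilent mouse miRNA arrays. All mice were males with the genotype that the labels write as Apobtm2Sgy/Ldltm1Her, so both diets share the knockouts, and the age field of all 6 samples reads 6 weeks, the same number as the weeks of feeding. The other 14 arrays, which helped to set the spread, come from chow at week 0 (n = 2) and from chow and high fat at weeks 18 and 30 (n = 3 each). The labels do not say whether a sample is 1 animal or a pool, so the p-values rest on how far these samples differ, and part of that may be technical.

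A miRNA is a short RNA that guides an Argonaute protein to messenger RNAs, mostly through pairing of its seed, bases 2 to 8 from its 5′ end, and lowers their output. miRNAs with the same seed share many targets and are grouped as families, and neighbours in the genome are often cut from one transcript as a cluster. In the artery wall, miR-143 and miR-145 are typical of smooth muscle and miR-126 of endothelium, while miR-181, miR-128 and the miR-17 cluster are known from immature lymphocytes, and the miR-17 cluster also from dividing cells in general.

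Of 609 miRNAs tested, 18 were lower in the high fat aortas and 0 were higher (limma with Benjamini-Hochberg adjustment at 0.05, 2.96% of those tested). They fell into 2 groups that were noticed after the values were seen. One holds miRNAs whose cell source was not tested, known from immature lymphocytes among other cells. It has 4 members of the miR-181 family, miR-128-3p, miR-363-3p and miR-18a-5p. Their mature sequences, from RefSeq GRCm38.p6, are shown with the seed in capitals because family members are told apart only outside it.
miR-181a-5p: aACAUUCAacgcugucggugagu
miR-181b-5p: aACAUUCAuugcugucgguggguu
miR-181d-5p: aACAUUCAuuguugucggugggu
miR-181a-1-3p: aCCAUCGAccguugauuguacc
miR-128-3p: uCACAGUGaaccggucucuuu
miR-363-3p: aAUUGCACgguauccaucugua
miR-18a-5p: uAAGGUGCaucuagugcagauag

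The other group holds miRNAs with runs of alternating G and U. RefSeq had a mature sequence under the same name for 13 of the 18 called miRNAs, and 5 of these 13 contain GUGUG or UGUGU. They are shown with that run in capitals.
miR-3064-5p: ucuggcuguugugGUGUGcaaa
miR-3097-5p: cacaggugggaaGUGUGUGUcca
miR-539-5p: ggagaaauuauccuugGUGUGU
miR-5709-3p: aaagucuuaaggGUGUGUauug
miR-6902-3p: ccaugugaUGUGUGgguucag

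For called miRNAs whose mature sequence was not used here, the array probe gives the matching letters. The longest probe of each is shown as deposited, as DNA complementary to the miRNA, with the run that holds CACAC or ACACA in capitals.
miR-466p-5p: atgtacatgtACACACACA
miR-297c-5p: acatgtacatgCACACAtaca
miR-467e-5p: acatatacatgctCACACt
miR-7029-3p: gatctggACACACAga

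The last called miRNAs are miR-466a-5p, whose 4 probes hold such a run, and miR-670-5p, a GU-rich miRNA without one. The sequence of miR-670-5p is shown with its seed, not a run, in capitals:
miR-670-5p: aUCCCUGAguguauguggugaa

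All values below are log2 normalised intensities unless another scale is named, with a floor of 3.09 that stands for signals near background. A difference is high fat minus chow on that scale. Arrays differed in quality and likeness. Between 345 and 654 miRNAs were detected on the 6 arrays, the fewest on high fat replicate 3, whose bright corner control spots had a median intensity of 29.2 against 524 to 884 on the other 5. Over the 192 miRNAs detected on all 20 arrays, chow replicates 1 and 2 were near copies, with an SD of their log2 differences of 0.281 and a Pearson r of 0.992 across miRNAs. That SD was 0.656 and 0.721 between chow replicate 3 and those 2 arrays, and 0.953 to 1.30 among the high fat arrays. The repeat spots of a probe varied by 6.03% and 6.12% (coefficient of variation) on chow replicates 1 and 2, which is spot noise and cannot tell 2 samples from 1 sample hybridised again. The labels list them as separate samples and they were counted so, and averaging them into 1 sample left 7 calls in place of 18. All 6 arrays lay on 1 slide, but chow replicates 1 and 2 sat in its row 1, and chow replicate 3 sat in row 2 with the 3 high fat arrays. The median SD of a miRNA was 0.29 in chow and 0.82 in high fat.

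Markers of the labelled tissue were present on all 6 arrays. Smooth muscle miR-143-3p lay between 9.59 and 10.42 on the 6 arrays, miR-145a-5p between 8.14 and 8.55, and endothelial miR-126a-3p between 10.85 and 12.14. The differences of these 3 were 0.13 (SE 0.54), 0.18 (SE 0.34) and 0.52 (SE 0.60), and none passed the test.

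miR-128-3p, a miRNA of brain and immature lymphocytes that also targets transcripts of cholesterol export, had a difference of -3.70, the largest of the called miRNAs that were detected in both groups. It read 9.62, 9.79 and 9.06 on the chow arrays and 4.79, 6.48 and 6.09 on the high fat arrays. The groups did not overlap, the lowest chow array lay more than 2 log2 units above the highest high fat array, and both groups were detected on all 3 arrays. The SE of the difference was 0.52 (adjusted p = 2.71e-04). At week 0, on chow, the 2 arrays read 5.59 and 5.70, inside the range of the week 6 high fat arrays. Among array miRNAs with a RefSeq sequence it is the only one with its seed, and its opposite arms miR-128-1-5p and miR-128-2-5p were not detected often enough to be tested.

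The miR-181 family, which tunes the sensitivity of the T-cell receptor in developing T cells, had 5 tested members, of which 4 fell. miR-181a-5p read 10.11, 10.05 and 9.44 on chow and 5.48, 7.08 and 7.84 on high fat. miR-181b-5p, made from the same transcripts, read 8.76, 8.68 and 8.09 on chow and 4.91, 6.07 and 6.53 on high fat. miR-181d-5p, from another cluster, read 6.18, 6.16 and 5.76 on chow and 3.83, 4.36 and 4.89 on high fat. In each, every chow array lay above every high fat array, high fat replicate 1 was the lowest and replicate 3 the highest of the high fat arrays, and all 6 arrays were detected. The differences were -3.07 (SE 0.71, adjusted p = 0.0176), -2.67 (SE 0.41, adjusted p = 5.22e-04) and -1.67 (SE 0.39, adjusted p = 0.0193).

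miR-181c-5p, with the same seed, had a difference of -1.69 (SE 0.50) and an adjusted p of 0.106. Its groups did not overlap, at 6.30, 6.39 and 5.82 on chow and 3.39, 4.95 and 5.10 on high fat. The family's 5p arms differ by few bases outside the seed, so they can hybridise to one another's probes. miR-181a-1-3p, the opposite arm of the miR-181a-1 hairpin, does not share that seed. It read 6.93, 7.05 and 6.29 on chow and was not well above background on any high fat array, where it read 3.09, 3.16 and 3.84. High fat lay at least 6.27-fold below chow (adjusted p = 6.76e-06, the smallest of the comparison). miR-181a-1-3p was at the floor on 13 of the 20 arrays, so its SE and p can be too small. With another background correction (normexp) its difference was -1.36 (limma, adjusted p = 0.362).

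Both probes of each of the 4 called miR-181 miRNAs and of miR-128-3p moved alike. The probe differences ranged from -3.79 to -3.66 for miR-128-3p, from -3.10 to -3.06 for miR-181a-5p and from -3.45 to -3.24 for miR-181a-1-3p. In build mm9, which the array's annotation uses, the probes for miR-181a-5p match chr1:139863054-139863067 and chr2:38708270-38708283, both on the plus strand. Those for miR-181b-5p match chr1:139863236-139863249 and chr2:38709374-38709387, also on the plus strand. The chromosome 2 genes lie within the protein-coding gene Nr6a1 by the RefSeq table of GRCm38.p6, and the 2 genes of miR-128 lie within R3hdm1 and Arpp21. miR-181d-5p maps to chr8:86702628-86702643 on the minus strand.

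The miR-17 cluster (miR-17 to miR-92a) and its paralog clusters miR-106a-363 and miR-106b-25, linked to proliferation, had 14 tested members. All 14 differences were negative, with a median of -1.35 against -0.11 over all 609 miRNAs, and 2 members fell. Without high fat replicate 1 the median was -0.81, with 13 negative and 1 positive, and miR-18a-5p was not called (adjusted p = 0.0906). miR-363-3p, from the X-linked paralog cluster, read 5.42, 5.61 and 4.98 on chow and 3.09 on all 3 high fat arrays, where it was not well above background. High fat lay at least 2.34-fold below chow (adjusted p = 1.39e-04). miR-363-3p was at the floor on 16 of the 20 arrays, so its SE and p can be too small. With normexp background correction its difference was -0.76 (limma, adjusted p = 0.997). miR-18a-5p read 6.10, 6.44 and 5.71 on chow and 3.09, 4.80 and 4.81 on high fat, a difference of -1.85 (SE 0.42, adjusted p = 0.0176). High fat replicate 1 was at the floor for both.

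The other 12 members did not pass the test. The abundant ones, miR-19b-3p, miR-20a-5p and miR-92a-3p, differed by -1.42 (SE 0.87), -1.44 (SE 0.77) and -1.38 (SE 0.71). miR-20b-5p of the X-linked cluster came closest, at 9.51, 9.63 and 8.98 on chow and 5.77, 7.82 and 7.80 on high fat (difference -2.24, SE 0.68, adjusted p = 0.113). miR-92a-3p and miR-25-3p share the seed of miR-363-3p and had differences of -1.38 and -1.33, and miR-18b-5p, with the seed of miR-18a-5p, had one of -1.03. In 10 of the 14 every chow array lay above every high fat array, which was so for 13.5% of all tested miRNAs (82 of 609). The probes of miR-18a-5p match chr14:115443094-115443111 in mm9, on the plus strand, and those of miR-363-3p chrX:50094923-50094940 on the minus strand.

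**Figure D1:**
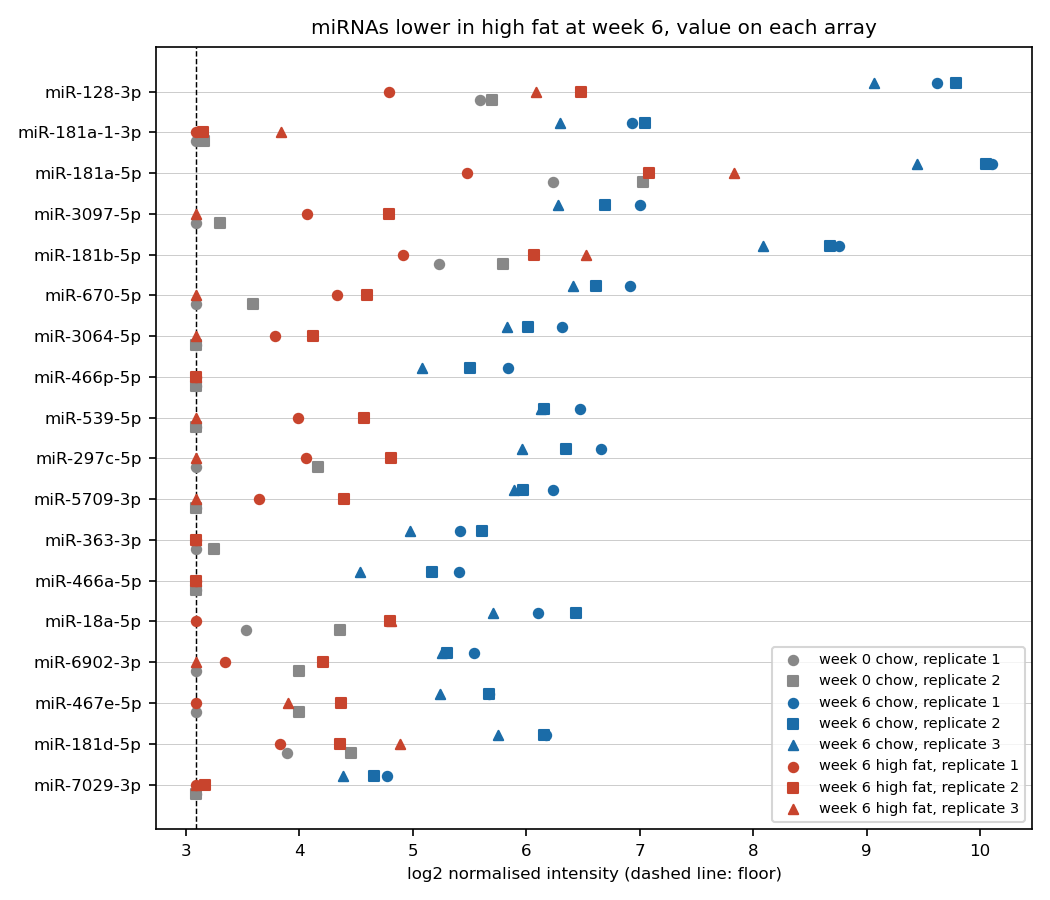
Values of the 18 miRNAs lower in high fat at week 6 on each array of weeks 0 and 6 (x axis, log2 normalised intensity; one line per miRNA; colour gives the group, shape the replicate). In every line the 3 chow arrays of week 6 lie to the right of the 3 high fat arrays and of the 2 arrays of week 0, and many high fat points sit on the dashed floor at 3.09.

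A list of miRNAs known from immature thymocytes is made of these same families, so its counts repeat values given above and add no support. Its 10 tested members are the 4 called miR-181 miRNAs, miR-128-3p and 5 of the miR-17 cluster and its paralogs (miR-17-5p, miR-19b-3p, miR-20b-5p, miR-92a-3p and miR-363-3p), and 6 of the 10 fell. All 10 were lower on every high fat array than on any chow array, with a median difference of -2.24. Its summed linear intensity was 5407, 5557 and 3590 on the chow arrays and 491, 1609 and 1755 on the high fat arrays, and it was 823 and 1451 at week 0. Mature lymphocyte markers had 4 tested members, miR-150-5p, miR-155-5p and both arms of miR-342, and none fell. Their sum was 678, 702 and 476 on chow and 277, 1272 and 2780 on high fat, so the 2 diets overlapped. Pan-leukocyte miR-142a-3p read 11.17, 11.35 and 10.79 on chow and 8.05, 11.10 and 11.70 on high fat (difference -0.82, SE 1.02).

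Thus high fat replicate 1 was low for thymocyte, lymphocyte and pan-leukocyte miRNAs alike, and high fat replicates 2 and 3 were low for the thymocyte list but not for the other 2. The part of immature lymphocytes in these differences was not tested. In bulk tissue, fewer cells of a type and less miRNA per cell cannot be told apart.

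The second group of called miRNAs followed a sequence feature. Among 496 tested miRNAs with a RefSeq mature sequence, 5.85% held GUGUG or UGUGU, against 38.5% of the 13 called ones. Over all 1608 miRNAs of the array with a sequence, the share was 4.79%. Both strings were searched on the miRNA strand, and they overlap each other in longer runs. The median difference was -1.64 over the 29 tested miRNAs that held a run and -0.08 over those that did not.

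Probe letters gave the same view for all 609 tested miRNAs. A probe held CACAC or ACACA for 44 of them, 7.22%, against 4.63% of the whole array, with only the probe strand searched. The median difference of these 44 was -1.93, with 43 negative and 1 positive, against -0.04 over the other 565. They hold 10 of the 18 calls, so 22.7% of them fell against 1.42% of the rest. In 33 of the 44 (75%) every chow array lay above every high fat array, against 8.67% of the rest. This feature was found by looking at the called miRNAs, so these shares describe it and do not test it.

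**Figure D2:**
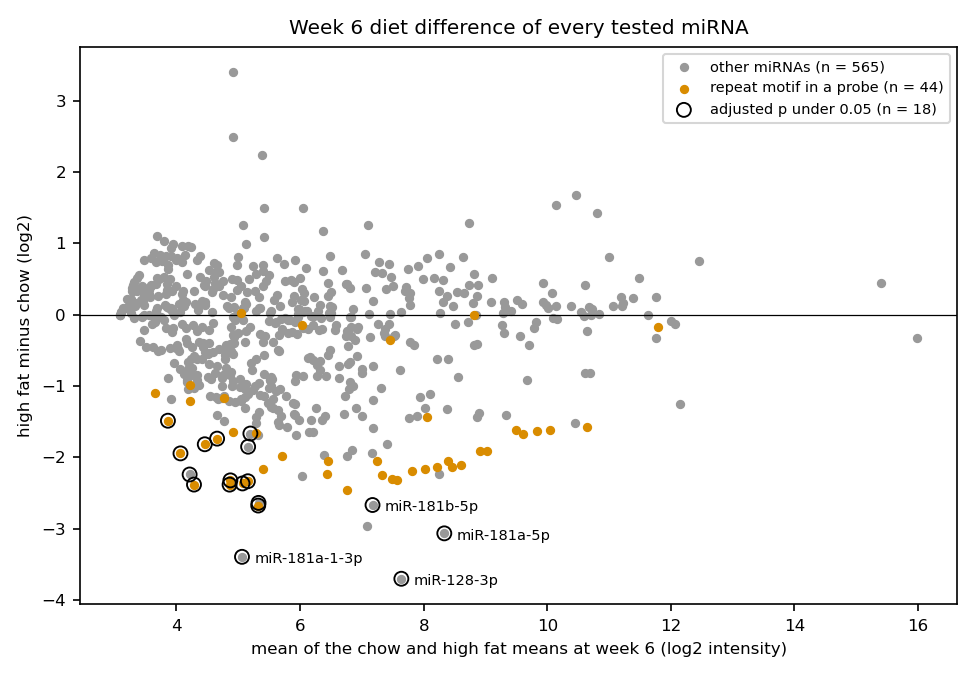
Difference between high fat and chow at week 6 (y axis, log2) against the mean of both groups (x axis, log2 normalised intensity) for each of the 609 tested miRNAs. Orange points, the 44 miRNAs with a CA run in a probe, lie below 0 in all but 1 case and at all levels, and circles mark the 18 called miRNAs, all below 0.

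The median level of the 44 was 7.81, 7.62 and 7.39 on the chow arrays and 6.06, 6.46 and 4.54 on the high fat arrays. It was 3.31 and 5.12 at week 0. The median of the other 565 miRNAs moved less, at 5.74, 5.64 and 5.72 on chow and 5.48, 5.69 and 4.95 on high fat. High fat replicate 3, the dim array, was the lowest of week 6 for both sets. Without it the median difference of the 44 was -1.32, and the median was negative under all 27 alternative settings (-2.42 to -0.92). Dim arrays of later weeks were also low for the 44. In the chow group of week 18, replicate 1 had a bright corner median of 10.2. In the high fat group of week 30, replicate 1 had 47.5. Both had a median of 3.09 for the 44, against 5.06 to 6.34 on the other later arrays. Their medians for the other 565 were 5.52 and 5.36. The week 0 array at 3.31 was not dim (682). Whether dimness set these medians was not tested.

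**Figure D3:**
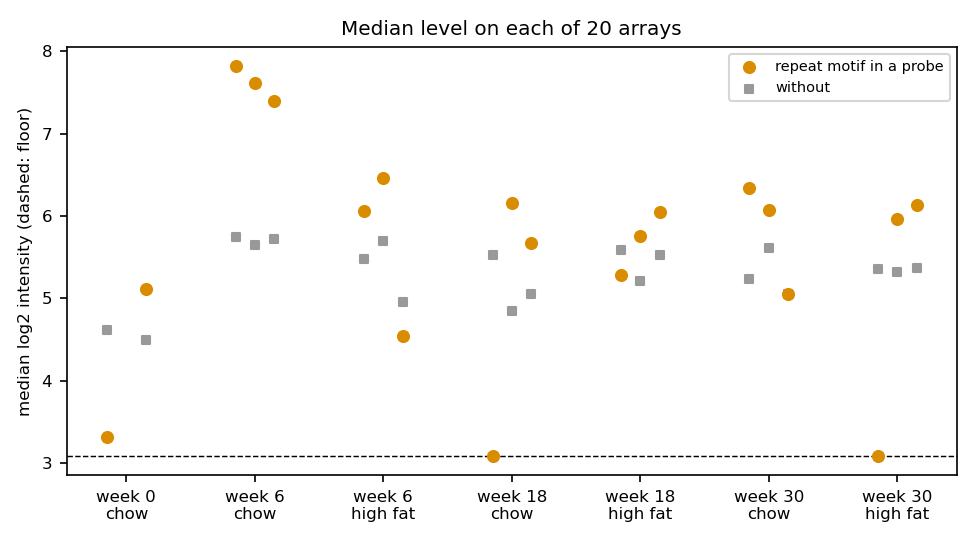
Median log2 normalised intensity on each of the 20 arrays (y axis) by group (x axis), for the 44 miRNAs with a CA run in a probe (orange) and the other 565 tested (grey squares). The 3 chow arrays of week 6 hold the highest orange points, 7.39 to 7.81, and the dashed line is the floor of 3.09. Orange points at the floor belong to dim arrays, replicate 1 of chow at week 18 and replicate 1 of high fat at week 30.

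Not every miRNA with such a probe differed. let-7b-5p, miR-210-3p, miR-378a-5p, miR-6937-5p and miR-7226-5p, named because their differences were the nearest to 0, lay between -0.35 and 0.02. miR-670-5p fell without the exact run, at 6.91, 6.62 and 6.41 on chow and 4.34, 4.59 and 3.09 on high fat (difference -2.64, SE 0.56, adjusted p = 0.0111).

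Among the called members with a run are miR-3097-5p and miR-3064-5p, for which no specific role is given here. miR-3097-5p, whose gene lies within Rgs12, read 7.01, 6.70 and 6.28 on chow and 4.07, 4.79 and 3.09 on high fat (difference -2.68, SE 0.56, adjusted p = 0.0107). miR-3064-5p, whose gene lies within Ddx5, read 6.31, 6.01 and 5.83 on chow and 3.79, 4.12 and 3.09 on high fat (difference -2.38, SE 0.43, adjusted p = 0.00283). High fat replicate 3 was at the floor for both, and the groups did not overlap. miR-5709-3p (gene within Ptprm), miR-539-5p and miR-6902-3p (gene within Ppp1r7) had the same order of arrays, with differences of -2.33, -2.37 and -1.82. miR-7029-3p (gene within Gcn1) was not well above background on any high fat array and at least 1.41-fold lower.

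High fat replicate 3 was at the floor for 11 of the 18 called miRNAs, and 9 of these 11 had a run in a probe. Of the 7 called miRNAs for which it was above the floor, 1 had a run, miR-467e-5p. So most members with a run were at the floor on high fat replicate 3. Of these, miR-466p-5p and miR-466a-5p were at the floor on all 3 high fat arrays, and miR-7029-3p on replicate 1 as well. In contrast, miR-181a-5p, miR-181b-5p, miR-181d-5p and miR-18a-5p were lowest on high fat replicate 1. Low medians of the 44 miRNAs also occurred on dim arrays of weeks 18 and 30, as given above. High fat replicates 1 and 2, with bright corner medians of 884 and 678, had medians of 6.06 and 6.46 for the 44. The chow arrays had 7.39 to 7.81. The part of the dimness of high fat replicate 3 in the called members with a run was not tested beyond leaving that array out. Without it 13 miRNAs were called.

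The families miR-297, miR-466, miR-467 and miR-669, known mostly from an intron of Sfmbt2 on chromosome 2, carry much of this feature. Those of the intron form a rodent cluster of many near-identical copies, best known from placenta and embryonic stem cells. Members were counted by name and not by position, and for the called miR-466a-5p no position was found. Of the 42 tested members of these families 4 fell, all of them 5p arms. miR-466p-5p lay between 5.08 and 5.84 on chow and 3.09 on each high fat array, where it was not well above background. It was at least 2.58-fold lower (adjusted p = 2.32e-04). It was at the floor on 12 of the 20 arrays, so this p can be too small. miR-466a-5p, likewise at 3.09 on each high fat array, was at least 1.90-fold lower, although its 4 probes ranged from -2.73 to 0.00. miR-297c-5p and miR-467e-5p fell by 2.34 and 1.74 on the log2 scale. Their probes match chr2:10430655-10430674 and chr2:10427362-10427379 in mm9, both on the plus strand.

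The arms, split after the values were seen, behaved differently. All 17 tested 5p arms had negative differences, from -2.46 to -1.21, with a median of -2.16. In 15 of them every chow array lay above every high fat array, which was so for 13.5% of all tested miRNAs (82 of 609). The median level of the 5p arms was 8.32, 7.90 and 7.75 on chow and 6.13, 6.47 and 4.20 on high fat. The 19 tested 3p arms ranged from -0.30 to 0.84 with a median of 0.10, and 0 were called. Their median level was 4.98, 4.68 and 5.47 on chow and 5.71, 6.90 and 3.09 on high fat, so high fat replicates 1 and 2 lay above and the dim replicate 3 below all chow arrays. The median of the 5p arms stayed negative under all 27 alternative settings, from -2.70 to -1.16, but these settings reuse the same arrays. That of the 3p arms changed sign in 10 of the 27, and without high fat replicate 3 it was 1.29.

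The other 13 tested 5p arms did not pass the test. miR-466m-5p, chosen after its values were seen, read 9.82, 9.06 and 9.41 on chow and 8.03, 8.24 and 5.84 on high fat (difference -2.06, SE 1.12, adjusted p = 0.509). miR-466f-5p came closest to a call, at 6.83, 6.44 and 6.18 on chow and 4.71, 5.15 and 3.09 on high fat (difference -2.17, SE 0.65, adjusted p = 0.113). Members of these families can bind one another's probes, so their values are not separate measurements.

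Without a call, the next lowest p-values on the lower side, after miR-181c-5p, miR-466f-5p and miR-20b-5p, belonged to miR-3067-5p and miR-92b-5p. Their differences were -1.49 (SE 0.45) and -1.40 (SE 0.43), each with an adjusted p of 0.113.

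No miRNA rose. At an unadjusted p under 0.05 there were 79 miRNAs (13%) in both directions. In 15 of 609 miRNAs (2.46%) every high fat array lay above every chow array. miR-133a-5p, the minor arm of a striated muscle miRNA, had the smallest p on that side, at 3.21, 3.72 and 4.08 on chow and 6.31, 6.53 and 5.61 on high fat (difference 2.48, SE 0.88, adjusted p = 0.192).

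Striated muscle miRNAs had 4 tested members with a median difference of 1.48, and 0 were called. miR-1a-3p, the leading miRNA of heart and skeletal muscle, read 9.52, 9.76 and 9.60 on chow and 11.54, 11.90 and 10.47 on high fat (difference 1.68, SE 1.27). miR-133a-3p read 8.54, 8.67 and 10.90 on chow and 10.90, 11.16 and 10.64 on high fat, so that chow replicate 3 lay with the high fat arrays. miR-206-3p, which is typical of skeletal muscle and has a CA run in a probe, read 8.08, 7.74 and 10.50 on chow and 8.22, 8.13 and 5.68 on high fat, with its difference negative (-1.43, SE 1.20). With chow replicate 3 as the only chow array, from row 2 of the slide, the median of the list was -0.08.

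The largest positive difference rested on 1 array. miR-34b-5p, a p53-linked miRNA, read 3.16, 3.40 and 3.11 on chow and 4.85, 10.03 and 4.98 on high fat (difference 3.40, SE 1.75, adjusted p = 0.462). miR-34a-5p of the same family had a difference of -0.78 (SE 0.56).

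Imprinted miRNAs of the Dlk1-Dio3 region, a large cluster on chromosome 12, gave 13 positive and 3 negative differences among 16 tested, with a median of 0.58. The only call was miR-539-5p, which fell and holds a GU run. miR-379-5p, miR-376a-3p and miR-300-3p had differences of 1.03, 1.10 and 0.70 with adjusted p-values of 0.248, 0.28 and 0.381. miR-376a-3p was detected on 0 chow arrays and 3 high fat arrays, near the floor on 1 of them. The median of the list was -0.01 with another background correction (normexp), so its direction depended on that choice.

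The other miRNAs on the higher side with the smallest p-values were miR-503-5p (0.79), miR-344i (1.26), miR-6898-5p (0.79), miR-511-3p (0.96) and miR-125a-3p (0.81), with adjusted p-values from 0.369 to 0.424. The groups overlapped for miR-503-5p, miR-511-3p and miR-125a-3p.

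**Figure D4:**
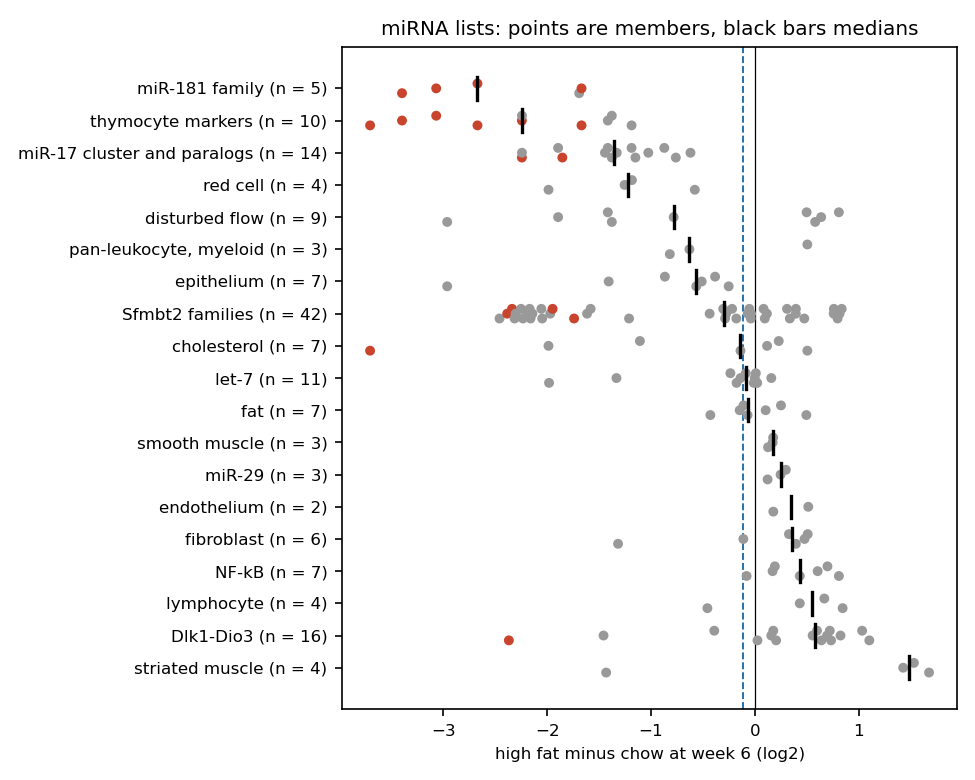
Members of 19 miRNA lists (points; red where adjusted p is under 0.05) by their difference between high fat and chow at week 6 (x axis, log2), with the median of each list as a black bar. The blue dashed line is the median of all 609 miRNAs, -0.11, and the 3 lists at the top, the miR-181 family, thymocyte markers and the miR-17 cluster with its paralogs, have all members below 0. So do the red cell and epithelium lists, and the thymocyte markers share members with both of the other lists at the top.

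miRNAs of the artery wall and of inflammation did not pass the test. Of a panel of 20 vascular miRNAs, 19 were tested and 0 called, with 14 positive and 5 negative differences. miR-21a-5p, a miRNA of injured and inflamed tissue, read 10.70, 10.87 and 10.20 on chow and 10.17, 12.38 and 11.66 on high fat (difference 0.81, SE 0.78). miR-155-5p and miR-146a-5p, which NF-kB induces, had differences of 0.43 (SE 0.96) and 0.61 (SE 0.90), and macrophage-rich miR-223-3p one of 0.51 (SE 0.55). In all of these, high fat replicate 1 lay below and high fat replicates 2 and 3 above every chow array. In the panel, miR-10a-5p, linked to flow in endothelium, was the only member with every high fat array above every chow array, at 7.51, 7.66 and 7.11 against 7.68, 8.33 and 8.19 (difference 0.64, SE 0.46, adjusted p = 0.617). The other way, miR-92a-3p and miR-34a-5p had every chow array above every high fat array.

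The 7 tested NF-kB miRNAs had a median difference of 0.43, the 6 fibroblast miRNAs 0.36, the 3 miR-29 members, which target collagen transcripts, 0.25, and the 11 let-7 members -0.09. None of these members was called. Of 7 tested miRNAs that target cholesterol handling, miR-128-3p fell, and the median was -0.14. miR-33-5p, made from an intron of Srebf2 and the best known of them, was left untested, since no group had it detected on all of its arrays. The 9 disturbed flow miRNAs had a median of -0.78, and the 5 negative ones, miR-19a-3p, miR-19b-3p, miR-34a-5p, miR-92a-3p and miR-205-5p, also stand in other lists here.

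Markers of blood and of epithelium differed between arrays. Red cell miR-451a read 12.89, 13.04 and 12.42 on chow and 10.73, 11.75 and 12.11 on high fat, and the 4 red cell miRNAs had a median difference of -1.22 with 0 called. Their summed linear intensity was 7993, 8855 and 5802 on chow and 1815, 3686 and 4596 on high fat, lower on each high fat array, so at week 6 the red cell list moved with the thymocyte list. At week 0 these lists parted. The red cell sum was 7368 and 4625, above each high fat array of week 6. The thymocyte sum was 823 and 1451, inside the range of the high fat arrays. Epithelial miR-205-5p read 7.69, 7.72 and 10.27 on chow and 3.09, 6.98 and 6.72 on high fat (difference -2.96, adjusted p = 0.447). The sum of the 7 epithelial miRNAs was 607, 663 and 1930 on chow and 103, 1638 and 368 on high fat. Liver miR-122-5p, which also has a CA run in a probe, was not well above background on any high fat array. The part of blood, epithelium, muscle or liver RNA in the differences was not tested.

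The other lists stayed near the median of all miRNAs or had few members. The median difference was -0.07 over 7 fat miRNAs, 0.12 over 5 neuron miRNAs, -0.18 over 5 p53 and senescence miRNAs, and 0.12 over 10 GC-rich or ribosomal RNA derived entries, with 0 called in each.

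Set against the rest of the series, the chow arrays of week 6 stood apart. For all 18 called miRNAs, each of the 3 chow arrays of week 6 lay above each of the other 17 arrays of the series, which was so for 64 of the 609 tested miRNAs (10.5%). The 18 were called for a difference from week 6 high fat, whose arrays are among the 17, so this describes them and adds no support. Some, such as miR-363-3p and miR-466a-5p, lay at or near the floor in every other group. For miR-363-3p the highest of those 17 was 3.25, a chow array of week 0, against 4.98 for the lowest chow array of week 6. For miR-181a-5p it was 7.87, a chow array of week 18, against 9.44. Of the 18, 9 were detected on at least 1 of the 2 week 0 arrays, and the week 0 mean of all 9 lay below the week 6 high fat mean. These gaps were small, from -0.66 (miR-670-5p) to -0.0053 (miR-6902-3p), and were not tested. For miR-670-5p, miR-6902-3p, miR-467e-5p and miR-297c-5p 1 of the 2 week 0 arrays was at the floor. The other 9 were not detected at week 0, so their order against high fat is set by the floor.

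Whether the diet difference of week 6 differed from that of the later weeks was tested directly. At weeks 18 and 30, 0 miRNAs (0%) were called between the diets by limma, with 7 (1.15%) and 114 (18.7%) at an unadjusted p under 0.05. Those weeks also held weak arrays. Week 18 high fat replicate 3 lay on another slide than the rest of week 18. Its negative control spots had an SD of 22.3, against 2.10 to 2.53 on all other arrays. It had 328 detected miRNAs, week 18 chow replicate 1 had 316 and week 30 high fat replicate 1 had 355. So 0 calls at these weeks do not show that a diet difference was absent. The difference of week 6 was lower than that of week 18 for 7 miRNAs (1.15%) and lower than that of week 30 for 5 (0.821%), with 0 higher in either case, and with 57 (9.36%) and 66 (10.8%) at an unadjusted p under 0.05. All 7 are among the 18: miR-128-3p, miR-181a-1-3p, miR-181b-5p, miR-181d-5p, miR-363-3p, miR-466a-5p and miR-466p-5p. The 5 of week 30 are the same without miR-128-3p and miR-181d-5p. miR-128-3p differed between the diets by 0.42 (SE 0.52) at week 18 and by -0.64 (SE 0.52) at week 30. Week 30 chow and week 30 high fat lie on different slides, and with slide as a block 0 of the differences against week 30 were called (limma, 47 at an unadjusted p under 0.05). Week 6 lay on a slide of its own with week 0, so week and slide cannot be told apart in these tests.

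**Figure D5:**
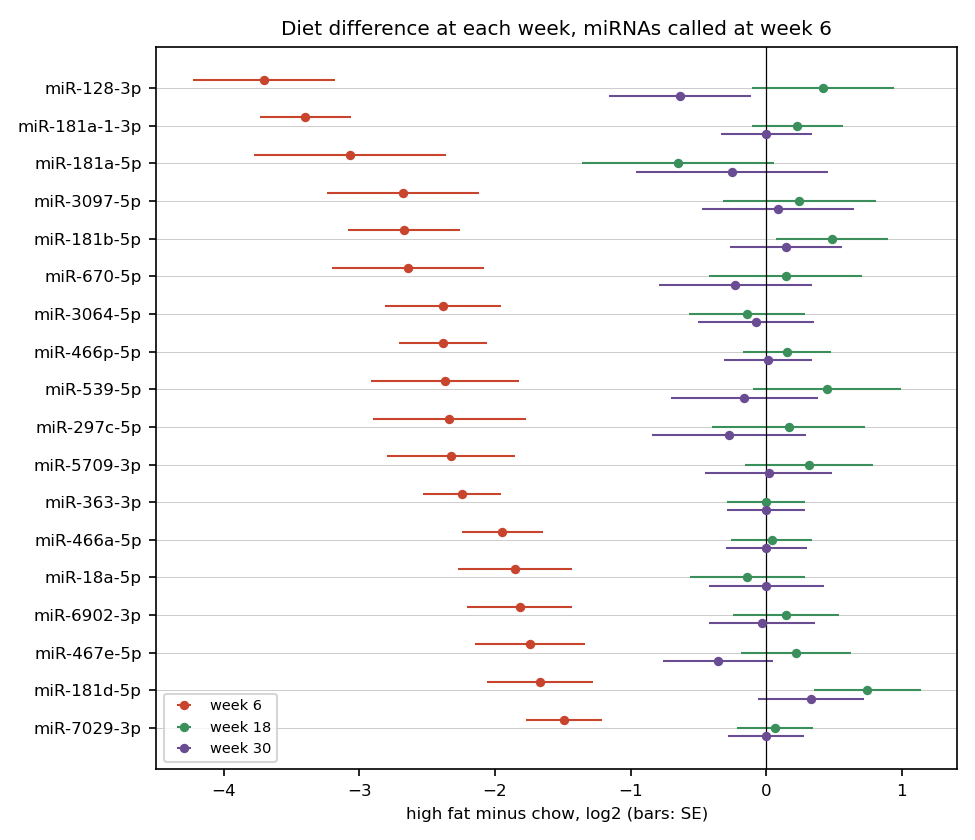
Difference between high fat and chow (x axis, log2, bars are SE) at weeks 6, 18 and 30 for the 18 miRNAs called at week 6. The red points of week 6 lie between -3.70 and -1.49, and the green and purple points of weeks 18 and 30 lie between -0.65 and 0.75.

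The number of calls depended on single arrays. It was 8 without chow replicate 1, 11 without high fat replicate 1 and 29 without high fat replicate 2, of which 1, miR-7002-5p, was higher. With the near copies chow 1 and 2 averaged into 1 sample it was 7: miR-128-3p, miR-181a-1-3p, miR-181b-5p, miR-363-3p, miR-3064-5p, miR-466a-5p and miR-466p-5p. With row 2 of the slide alone, 1 chow array against 3 high fat arrays, it was 1, miR-181a-1-3p (-2.93, adjusted p = 0.0115), where the lone chow array is assumed to vary like the other groups. A permutation of 3 against 3 arrays cannot give a 2-sided p below 0.10 for any single miRNA. These calls rest on the model of limma, with a spread shared over all 20 arrays and over miRNAs. In a fit of the 6 arrays of week 6 alone 4 of the 18 were called.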

How the data were processed

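The deposited files give linear spot intensities, background-subtracted and with no scaling between arrays per the file headers. The submitters' processing notes name Agilent Feature Extraction 11.5.1. The deposited value table held equal intensities (within 0.1%) in all 20 columns. Here, control spots and outlier spots (1370 to 2058 per week 6 array) were dropped, with 0 saturated spots, and means were taken over the spots of a probe and then over the probes of a miRNA. Detection needed 1 probe with 0.5 or more of its retained spots well above background. Arrays were divided by their 75th percentile over 192 miRNAs detected on all 20 arrays, floored at 3.09 and put on the log2 scale. Tested were 609 miRNAs, those detected throughout at least 1 group, with limma 3.58.1 (R 4.3.3) on 20 arrays and 7 groups, 13 residual degrees of freedom, 2-sided. Where no high fat array had a miRNA well above background, its fold is a bound ("at least"): the chow mean against, per array, the higher of the lowest detected probe signal and its own. The series' design text splits the week 18 time, and the treatment protocol's times were used. The number of arrays limits the precision.

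The comparison, lists and alternatives were chosen with earlier results of these data known. Named are all called miRNAs, the 10 higher and 5 lower without a call with the smallest p, arms and seed relatives of called ones, up to 4 members per list, and a vascular panel. Further names were chosen after the values were seen. Same-numbered chow and high fat arrays did not deviate together (r -0.28, 0.40 and -0.06), so the replicate numbers were not used as pairs. The script was tested on simulated data.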

Additional observations from a re-analysis of the deposited data

Results flagged for a closer look

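The diet difference of week 6 differed from that of a later week for 7 miRNAs by limma's test of the difference itself (609 tested, Benjamini-Hochberg adjusted over all). For miR-181a-1-3p the week 6 difference minus that of week 18 was -3.63 (adjusted p = 3.69e-04), and minus that of week 30 it was -3.40 (adjusted p = 8.76e-04). For miR-128-3p it was -4.13 against week 18 (adjusted p = 0.00522), with no call against week 30. For miR-181b-5p the values were -3.16 (adjusted p = 0.00522) and -2.82 (adjusted p = 0.0222), and for miR-181d-5p -2.41 against week 18 (adjusted p = 0.0379). For miR-363-3p they were -2.24 (adjusted p = 0.00522) and -2.24 (adjusted p = 0.0107). For miR-466p-5p they were -2.54 and -2.40, and for miR-466a-5p -1.99 and -1.95. miR-181a-1-3p, miR-363-3p, miR-466p-5p and miR-466a-5p lay at or near the floor in all groups but week 6 chow and were not detected on any week 6 high fat array. Their values are set by the floor and give no exact size, and their standard errors can be too small. Week 30 high fat and chow lie on different slides, and with slide as a block 0 differences against week 30 were called.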

How the results depend on the processing

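All 18 called miRNAs kept a negative difference in each of the 25 or 26 alternatives that included them, and miR-128-3p stayed called in 25 of 26 and miR-181a-1-3p in 24 of 25, against 7 of 25 for miR-297c-5p. The alternatives reuse these arrays, and a miRNA at the floor in high fat can hardly change sign, so the shared direction adds no support. The weakest differences were -0.0036 for miR-7029-3p and -0.35 for miR-466a-5p. The count of 18 was 2 with normexp background correction, 10 with the 75th percentile over all miRNAs, 3 without scaling, 8 with a floor lower by 1, 0 over the 192 miRNAs detected on all 20 arrays (limma, 7 at an unadjusted p under 0.05), 4 over those detected on all 6, 4 in a fit of the 6 arrays alone, 8 with the slide row of the description as a block, 1 in row 2 alone and 7 with near copies averaged. Leaving out 1 array gave 8 to 29. Added after seeing the data, a floor at the highest detection limit of week 6 gave 46 (16 shared with the 18) and the row of the file headers as a block 6. Against week 18 the count of 7 was 0 with normexp, 1 without scaling, with quantile normalization, with the row block and with near copies averaged, and 5 to 8 leaving out 1 array. Against week 30 the count of 5 was 0 with normexp, without scaling, with slide and with row blocks, 1 with quantile normalization and with near copies averaged, and 1 to 7 leaving out 1 array, the lowest without chow replicate 1 or 2. With the replicate number as a block, a pairing that the data do not bear out, the counts were 18, 6 and 5. The causes were not tested, apart from the fewer miRNAs or arrays in some fits. Signal over background limits the floored miRNAs: 5 of the 18 were not detected on any high fat array.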
